A study of Mus musculus with 11 samples.

Results

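The enzymes that remove superoxide and hydrogen peroxide were followed through 10 genes in embryonic mouse hearts with and without the phosphodiesterase Pde2A. The genes were the superoxide dismutases *Sod1*, *Sod2* and *Sod3*, catalase (*Cat*), the glutathione peroxidases *Gpx1*, *Gpx3* and *Gpx4*, and the peroxiredoxins *Prdx1*, *Prdx2* and *Prdx3*. They were chosen by function and by symbol, with earlier results of these data known, and each symbol matched 1 gene identifier. They make up 10 of the 55487 genes in the count files and 10 of the 24177 genes that had at least 10 counts over the 11 hearts and were tested. All 10 passed that filter.

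Whole hearts were taken at E14.5 from 5 *Pde2A*-/- and 6 *Pde2A*+/+ embryos, and the RNA of each heart was sequenced as its own library. The knockout embryos were homozygous for the Pde2A tm1Dgen allele, and both genotypes came from crosses of heterozygous parents on a mixed B6;129P2 background. The embryos were untreated and of both sexes. The gene was disrupted in the whole embryo and not in the heart alone, and neither litter nor sex was given for single hearts. *Pde2a* itself had between 0 and 2 counts per library and 7 in all, in both genotypes, and so gave no check of the labelled genotypes. These are the counts of the identifier named *Pde2a*, and whether they reflect the level of the gene was not tested.

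Superoxide is a by-product of mitochondrial respiration and the product of NADPH oxidases. Superoxide dismutases turn it into hydrogen peroxide, in the cytosol (Sod1), the mitochondrial matrix (Sod2) or outside the cell (Sod3). Hydrogen peroxide is then broken down by catalase in peroxisomes, by glutathione peroxidases, of which Gpx1, Gpx3 and Gpx4 are selenoproteins and draw on glutathione, and by peroxiredoxins, which draw on thioredoxin. In the heart these enzymes guard cells rich in mitochondria, and red blood cells also carry large amounts of several of them.

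*Gpx1*, *Gpx3* and *Cat* were higher in *Pde2A*-/- hearts, by 54.1%, 31.2% and 19.8% (edgeR quasi-likelihood test, adjusted p = 0.00413, 0.0196 and 0.0177). None of the 10 genes was lower at an adjusted p under 0.05, although *Prdx1* and *Sod2* had negative estimates with unadjusted p = 0.0234 and 0.0263, and DESeq2 called 0 lower as well. Among all genes tested, 8.93% were higher and 5.67% lower at this threshold. Of the 2286 genes whose mean reached 100 CPM, 9 of the 10 enzymes among them, 13.8% were higher and 10.5% lower. No enzyme changed by at least 2-fold, against 2.21% of all genes tested that were higher by that margin. No enzyme had genotypes that did not overlap, against 8.49% of all genes tested. CPM stands for counts scaled to a common library size by TMM throughout.

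The stretches of sequence upstream of the 3 genes that passed the test, and of *Prdx1*, the gene with the most negative estimate, are shown because these genes share a function but differ in the sign of their estimates. Each is the longest run without an annotated exon of the gene in the 250 bases before the RefSeq start (GRCm38.p6), written 5′ to 3′ on the strand of the gene. Capitals mark CCAAT, the core ACGTG of hypoxia response elements, the core TGACNNNGC of antioxidant response elements and the GATA motif, on either strand. The GATA motif was taken as AGATAA, as its variant AGATAG, as the form TGATAA, or as the form TGATAG.
Gpx1 (chr9:108338830-108338902, + strand): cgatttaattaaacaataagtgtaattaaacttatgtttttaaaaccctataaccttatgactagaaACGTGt
Gpx3 (chr11:54902604-54902771, + strand): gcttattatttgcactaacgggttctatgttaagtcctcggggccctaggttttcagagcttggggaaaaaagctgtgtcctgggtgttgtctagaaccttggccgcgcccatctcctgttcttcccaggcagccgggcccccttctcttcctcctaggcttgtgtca
Cat (chr2:103485161-103485403, - strand): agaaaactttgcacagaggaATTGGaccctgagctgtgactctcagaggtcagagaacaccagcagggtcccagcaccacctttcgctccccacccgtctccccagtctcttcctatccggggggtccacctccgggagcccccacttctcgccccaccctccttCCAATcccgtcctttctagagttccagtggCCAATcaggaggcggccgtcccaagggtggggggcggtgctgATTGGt
Prdx1 (chr4:116685349-116685543, + strand): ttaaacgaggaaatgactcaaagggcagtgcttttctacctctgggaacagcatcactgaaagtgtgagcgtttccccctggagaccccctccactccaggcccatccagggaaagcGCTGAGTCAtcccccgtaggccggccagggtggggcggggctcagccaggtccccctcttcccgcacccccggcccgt
Of the 10 genes, 9 matched the RefSeq promoter table, in 12 windows of 250 bases because *Gpx4* has several starts. *Sod3* was not among them. The antioxidant response element core stood in the windows of *Prdx1* and *Sod1* only, and in 10.2% of all 32851 windows of the same length. The hypoxia core, searched as ACGTG only, stood in the window of *Gpx1* alone of the 9 genes and in 16.6% of all windows. Its variant GCGTG was not counted and occurs in other windows, those of *Sod1* and *Sod2* among them. CCAAT was found in 7 of the 12 windows, for 5 of the 9 genes, and in 33.9% of all windows. *Cat* had 4 matches, all in the run shown, and *Gpx3* had 1, outside the run shown. GATA motifs were found in 3 of the 12 windows, all of *Gpx4*, and in 26.5% of all windows. The 3 genes that rose therefore shared none of these letters among all 3. A match describes the letters and not a bound site.

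**Figure D1:**
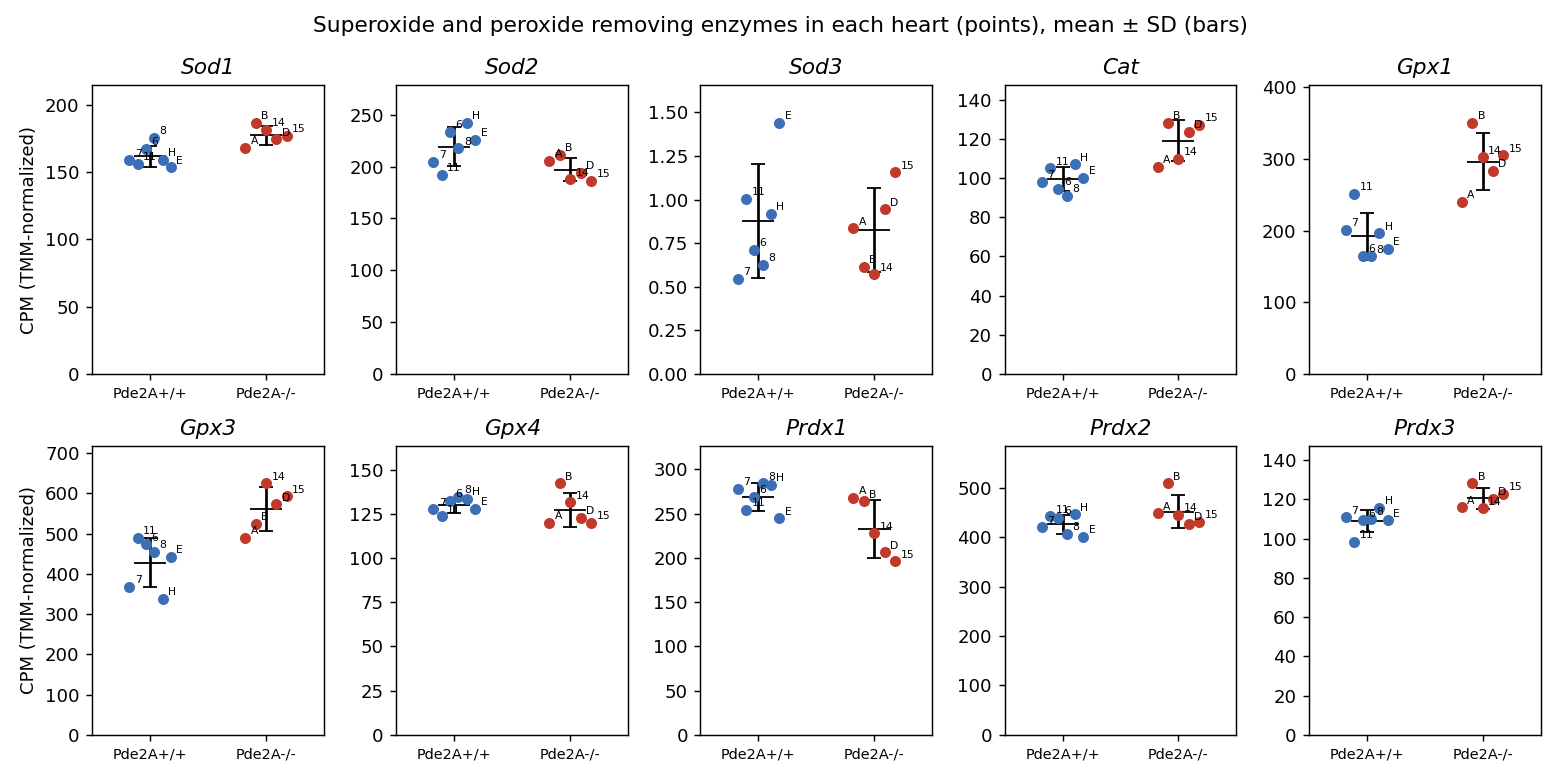
CPM (vertical axes from 0) of the 10 enzymes in each heart, with *Pde2A*+/+ in blue and *Pde2A*-/- in red, replicate names beside the points, and black bars for the mean and SD of 6 and 5 hearts. In *Gpx1*, *Gpx3* and *Cat* 4 of the 5 knockout hearts sit above every wild-type heart, and replicate A is the one that does not.

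Depth was even between the genotypes. The counts on gene strands summed to 35865537 in the shallowest library and 42835382 in the deepest, with no difference in total past the threshold (exact permutation test, two-sided, p = 0.87). The share of reads on no single gene was lower in knockout hearts (median 20.6%) than in wild-type hearts (median 21.6%), by a two-sided exact permutation test (p = 0.026, smallest possible p = 0.0043), and its part in the results was not tested. The common biological coefficient of variation was 16.8%. Every enzyme apart from *Sod3* had at least 3452 counts in every heart, so the spread between hearts and not counting error set the precision. *Sod3* had between 21 and 60 counts.

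*Gpx1* (ENSMUSG00000063856, chromosome 9, 108338903 to 108340343, + strand) encodes the abundant cytosolic and mitochondrial glutathione peroxidase. It measured 240 CPM in knockout replicate A, 350 in B, 302 in 14, 283 in D and 305 in 15, and the wild-type hearts ranged from 164 to 251 with a median of 186. Knockout replicate A fell below the highest wild-type heart, replicate 11, and the other knockout hearts lay above all wild-type hearts. The means were 296 ± 40.0 (SD, n = 5) and 192 ± 32.9 (SD, n = 6), a log2 fold change of 0.62 (SE 0.115, 95% interval 0.38 to 0.87). This was the largest change of the 10 and the only one past an adjusted p of 0.01. The study had picked *Gpx1* for RT-qPCR from the sequencing of these hearts and reported it as upregulated. The choice of this gene is therefore not independent of its direction.

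*Gpx3* (ENSMUSG00000018339, chromosome 11, 54902453 to 54910377, + strand) encodes the secreted glutathione peroxidase of plasma. Knockout hearts had 490 (replicate A), 525 (B), 624.6 (14), 573 (D) and 592 CPM (15), against 337 to 490 with a median of 448 in wild-type hearts. The lowest knockout heart and the highest wild-type heart met at the same level, and the rest were apart. The log2 fold change was 0.39 (SE 0.0973, 95% interval 0.18 to 0.60), from 427 ± 61.1 CPM (SD, n = 6) to 561 ± 53.7 (SD, n = 5). This call depended on single hearts: the edgeR adjusted p was 0.0572 without *Pde2A*-/- replicate 14, 0.0520 without D and 0.0505 without 15, at log2 fold changes of 0.35, 0.39 and 0.38.

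*Gpx4* (ENSMUSG00000075706, chromosome 10, 80047166 to 80056439, + strand) encodes the peroxidase that reduces lipid peroxides in membranes. Its values were 120 (A), 142 (B), 131 (14), 123 (D) and 120 CPM (15) in knockout hearts and 124 to 135 with a median of 130 in wild-type hearts. The knockout range enclosed the wild-type range, and the log2 fold change was -0.03 (SE 0.0512), with a 95% interval from -0.14 to 0.08 (adjusted p = 0.754). The annotation names 1 pseudogene after *Gpx4*, whose reads could be split with it.

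Catalase breaks down hydrogen peroxide without a reducing partner. *Cat* (ENSMUSG00000027187, chromosome 2, 103453849 to 103485160, - strand) had 106 CPM in knockout replicate A, 128 in B, 110 in 14, 124 in D and 127 in 15. Wild-type hearts ranged from 91.0 to 107 with a median of 99.0. Replicates A and 14 lay close to the highest wild-type heart and only A fell below it. The means were 119 ± 10.5 (SD, n = 5) and 99.3 ± 6.10 (SD, n = 6), a log2 fold change of 0.26 (SE 0.063, 95% interval 0.12 to 0.40). With each heart left out in turn the log2 fold change stayed between 0.23 and 0.30 and the edgeR adjusted p reached 0.0499 at most.

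**Figure D2:**
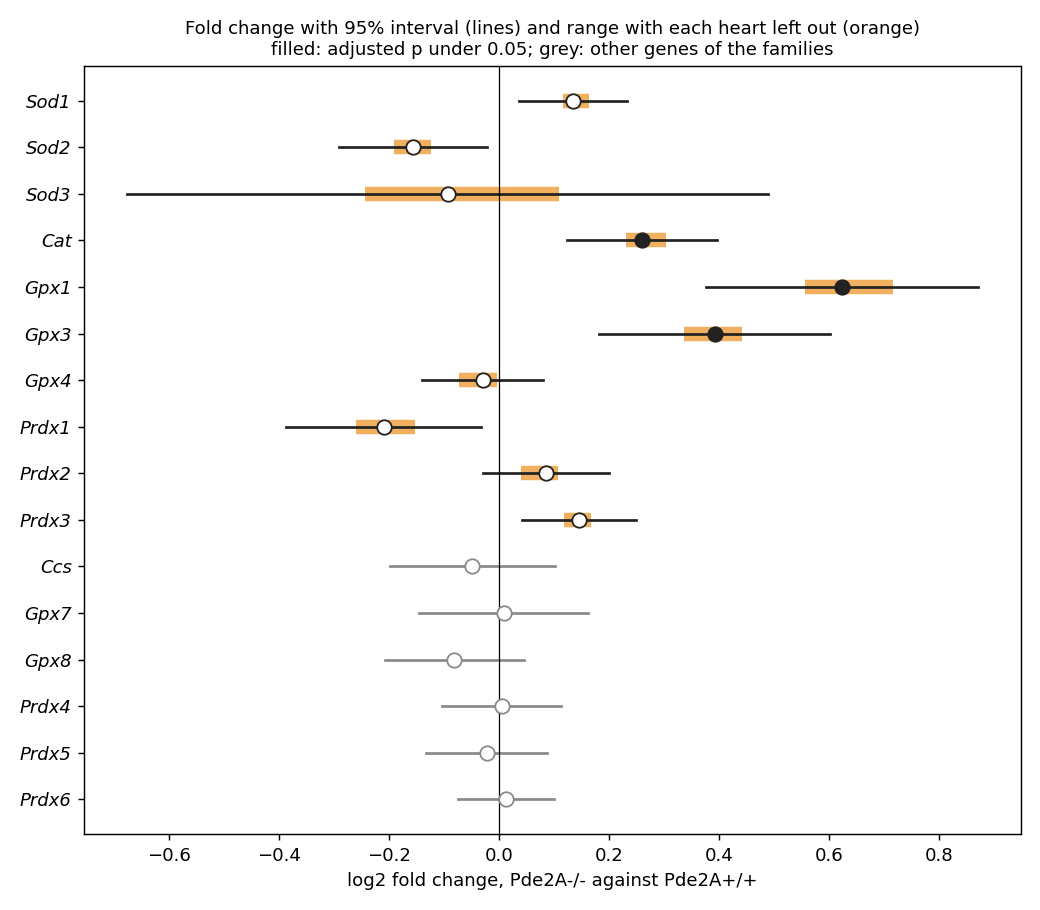
Log2 fold change of *Pde2A*-/- against *Pde2A*+/+ hearts (horizontal axis) for the 10 enzymes in black and for 6 further genes of the same families in grey, with 95% intervals as lines, filled points for an adjusted p under 0.05 and orange bars for the range when each heart was left out. The filled points are *Cat*, *Gpx1* and *Gpx3*, and the grey points lie between -0.08 and 0.01.

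The superoxide dismutases did not pass the test, and their estimates had different signs. *Sod1* (ENSMUSG00000022982, chromosome 16, 90220754 to 90226329, + strand), the cytosolic copper and zinc enzyme, had 168 (A), 187 (B), 181 (14), 174 (D) and 177 CPM (15) in knockout hearts and 154 to 175 with a median of 159 in wild-type hearts. Replicates B, 14 and 15 exceeded every wild-type heart. The estimate was a log2 fold change of 0.13 (SE 0.0459, 95% interval 0.04 to 0.23, adjusted p = 0.066). DESeq2 gave the same estimate with an adjusted p of 0.0177, and the edgeR adjusted p was 0.0398 without *Pde2A*-/- replicate A and 0.0314 without *Pde2A*+/+ replicate 8.

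*Sod2* (ENSMUSG00000006818, chromosome 17, 13006846 to 13040063, + strand), the manganese enzyme of mitochondria, had 205 (A), 211 (B), 188 (14), 194 (D) and 186 CPM (15) in knockout hearts. Wild-type hearts had 192 to 242 with a median of 222. Replicates 14 and 15 lay below every wild-type heart, and the log2 fold change was -0.16 (SE 0.0625, 95% interval -0.29 to -0.02, adjusted p = 0.109). It passed with the naming style of the replicates, letters or numbers, as a covariate (adjusted p = 0.0346) and without *Pde2A*+/+ replicate 11 (edgeR adjusted p = 0.0456).

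*Sod3* (ENSMUSG00000072941, chromosome 5, 52363791 to 52371418, + strand), the secreted enzyme, was near the limit of detection. Its level lay between 0.572 and 1.16 CPM in knockout hearts and between 0.548 and 1.44 in wild-type hearts. The ranges were nearly the same, and the log2 fold change was -0.09 (SE 0.271, adjusted p = 0.861) with a 95% interval from -0.68 to 0.49, so a change within that interval could not be told from none in these hearts.

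The peroxiredoxins also had estimates of both signs, and none passed. *Prdx1* (ENSMUSG00000028691, chromosome 4, 116685544 to 116700822, + strand), a cytosolic peroxiredoxin, had 268 (A), 264 (B), 228 (14), 206 (D) and 196 CPM (15) in knockout hearts and 245 to 284 with a median of 274 in wild-type hearts. Replicates A and B were inside the wild-type range and the other 3 below it. The log2 fold change was -0.21 (SE 0.0819, 95% interval -0.39 to -0.03, adjusted p = 0.101). Without *Pde2A*-/- replicate A it was -0.26 (edgeR adjusted p = 0.0365), and without B it was -0.26 (edgeR adjusted p = 0.0453).

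*Prdx2* (ENSMUSG00000005161, chromosome 8, 84969587 to 84974834, + strand), a cytosolic peroxiredoxin known for its abundance in red blood cells, had 449 (A), 509 (B), 445 (14), 427 (D) and 431 CPM (15) in knockout hearts. Wild-type hearts had 401 to 447 with a median of 430. Replicate B stood above the rest, and the other knockout hearts lay in or next to the wild-type range. The log2 fold change was 0.09 (SE 0.0534, 95% interval -0.03 to 0.20, adjusted p = 0.308). Exons of *Junb* and *Rnaseh2a* on the opposite strand cover 11.5% of the exon bases of *Prdx2*, and only reads on the strand of the gene were used.

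*Prdx3* (ENSMUSG00000024997, chromosome 19, 60864051 to 60874556, - strand), the mitochondrial peroxiredoxin, had 116 (A), 128 (B), 115 (14), 120 (D) and 123 CPM (15) in knockout hearts and 98.2 to 116 with a median of 110 in wild-type hearts. Replicate 14 alone lay below the highest wild-type heart, and the log2 fold change was 0.15 (SE 0.0483, 95% interval 0.04 to 0.25, adjusted p = 0.0594). The estimate passed in DESeq2 (adjusted p = 0.0152) and in edgeR without *Pde2A*-/- replicate A (adjusted p = 0.0426) or without *Pde2A*+/+ replicate H (adjusted p = 0.0480). The mitochondrial pair *Sod2* and *Prdx3* thus had estimates of opposite sign.

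Summed over the 10 genes, knockout hearts held 2283 ± 108 CPM (SD, n = 5) and wild-type hearts 2035 ± 57.7 (SD, n = 6). The sums ran from 2162 to 2445 in knockout and from 1967 to 2115 in wild-type hearts and did not overlap. The differences in mean were largest for *Gpx3* and *Gpx1*, and those of *Prdx1* and *Sod2* ran the other way, so the sum describes no shift of all 10. Replicate B had the highest knockout value for 7 of the 10 genes, and replicate A the lowest for 5. Their log2 fold changes had a median of 0.11, and those of all genes tested a median of -0.02.

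Levels can be compared between genes only per length. In wild-type hearts, per kilobase of the union of exons, *Gpx3* had the highest level at 236 ± 33.7 CPM per kilobase (SD, n = 6). *Prdx2* (140 ± 6.41) and *Gpx1* (133 ± 22.8) followed and did not differ beyond their spread. *Prdx1* (88.3 ± 5.27), *Gpx4* (75.4 ± 2.44) and *Prdx3* (73.7 ± 3.90) came next, and the last 2 did not differ beyond their spread. *Sod1* (40.7 ± 2.03) and *Cat* (38.0 ± 2.34) were neighbours within about their spread, *Sod2* had 21.9 ± 1.87, and *Sod3* had 0.234 ± 0.0874. The place of *Sod1* rested on the length used. Its exon union and longest transcript, a retained intron, are 3970 bases and its principal transcript 641, over which its level was 252 ± 12.6 CPM per kilobase and its rank moved from 7 to 3. Per principal transcript *Prdx2* had 264 ± 12.1, *Gpx3* 268 ± 38.4 and *Gpx1* 179 ± 30.7, so *Gpx3*, *Prdx2* and *Sod1* overlapped at the top.

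**Figure D3:**
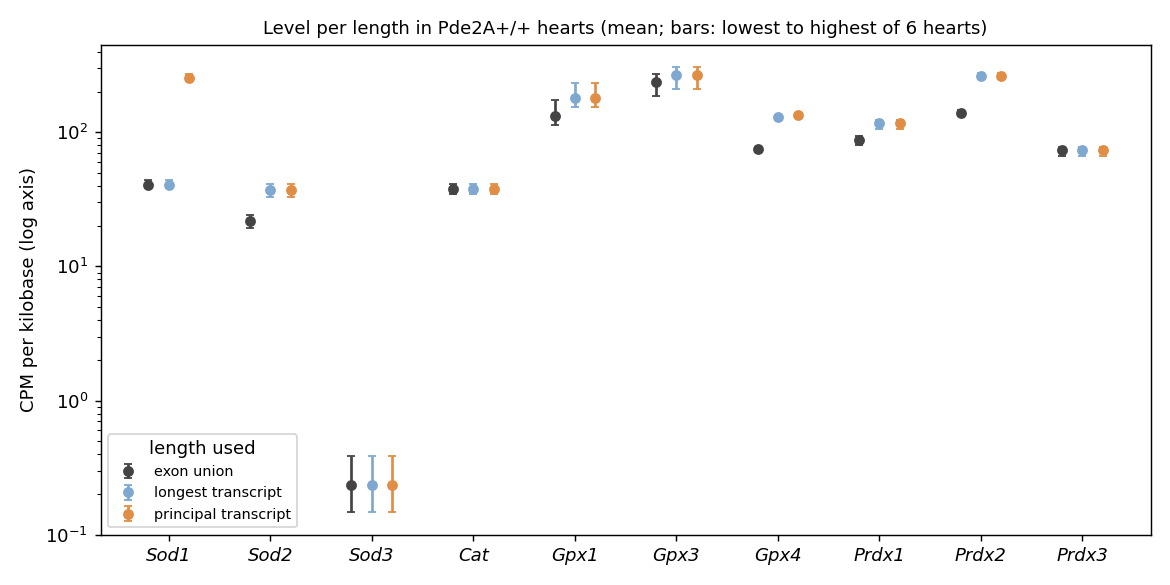
Level per length in *Pde2A*+/+ hearts (CPM per kilobase, log axis) of the 10 enzymes, as the mean of 6 hearts with bars from the lowest to the highest heart, for 3 ways to set the length. *Sod1* moves from 40.7 to 252 with the principal transcript, and *Sod3* stays at 0.234.

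The other genes of the same families showed no call. Of 7 tested, 0 were higher and 0 lower, against 8.93% higher and 5.67% lower over all genes tested, so 0 calls among 7 genes is near these shares. Their median log2 fold change was -0.02, and 0 were called under any of the 19 alternatives. By unadjusted p none of them was under 0.05. *Gpx2* among them was near the limit of detection, with a mean of 0 CPM in knockout and 0.0453 in wild-type hearts. *Prdx6*, which reduces lipid peroxides, had 151 ± 1.62 CPM (SD, n = 5) in knockout and 150 ± 6.66 (SD, n = 6) in wild-type hearts, with a 95% interval of the log2 fold change from -0.08 to 0.10. *Ccs*, the copper chaperone of Sod1, had a log2 fold change of -0.05 (SE 0.0698, adjusted p = 0.698). *Gpx5* and *Gpx6* had too few counts to be tested.

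Both subunits of the enzyme for the first step of glutathione synthesis were higher. Of 7 genes for glutathione synthesis and reduction 3 were higher and 0 lower. For this and the lists that follow, the shares over all genes tested were 8.93% higher and 5.67% lower. *Gclm*, the modifier subunit of the enzyme that limits glutathione synthesis, had 62.1 to 84.9 CPM in knockout and 40.0 to 49.1 in wild-type hearts, without overlap (log2 fold change 0.74, SE 0.0766, adjusted p = 4.91e-05). *Gclc*, its catalytic subunit, rose by 0.54 on the log2 scale (SE 0.071, adjusted p = 3.43e-04), and *Slc3a2*, a subunit shared by several amino acid carriers, by 0.49 (SE 0.116, adjusted p = 0.0166), which became 0.0530 without *Pde2A*-/- replicate D. *Gsr*, which returns oxidized glutathione to its reduced form, had a log2 fold change of -0.02 (SE 0.0589, adjusted p = 0.889).

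Of 14 genes of the thioredoxin and glutaredoxin cycle, 2 were higher and 1 lower. *Srxn1*, which repairs overoxidized peroxiredoxins, had 14.2 to 20.3 CPM in knockout and 8.65 to 12.3 in wild-type hearts (log2 fold change 0.82, SE 0.108, adjusted p = 3.84e-04). All knockout hearts were above all wild-type hearts. *Txnrd2*, the mitochondrial thioredoxin reductase, was higher by 0.28 (adjusted p = 0.0493) and passed in 3 of the 11 fits with a heart left out, and *Txnrd3* was lower (log2 fold change -0.22, adjusted p = 0.0211), passing in 8 of the 11. The list's count of lower genes ran from 0 to 5 over the alternatives.

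NADPH feeds both cycles, and 2 of 8 genes of its supply were higher and 0 lower: *Tkt*, a transketolase, by 0.44 on the log2 scale (SE 0.0983, adjusted p = 0.0122) and *G6pdx*, the entry enzyme of the pentose phosphate pathway, by 0.34 (SE 0.0592, adjusted p = 0.00285). Of 7 genes that make selenoproteins, the class to which Gpx1, Gpx3 and Gpx4 belong, 0 were higher and 2 lower. These were *Sephs1* (log2 fold change -0.40, SE 0.12, adjusted p = 0.041) and *Pstk* (-0.20, SE 0.0592, adjusted p = 0.0375). They passed in 2 and 4 of the 11 fits with a heart left out. Of 12 peroxisome genes, 2 were higher and 0 lower, *Pex5* (0.27, adjusted p = 0.0476) among them, which passed in 2 of the 11 such fits. The count of higher peroxisome genes ran from 0 to 2 over the alternatives. Of 13 mitochondrial genes 2 were lower, *Cycs* (-0.40, adjusted p = 0.01) and *Tomm22* (-0.22, adjusted p = 0.0195, in 9 of the 11 such fits, lost without *Pde2A*-/- replicates 14 or D), and 0 were higher.

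Sources of superoxide and peroxide had more calls. Of 15 genes 5 were higher and 0 lower. *Cybb*, the catalytic subunit of the phagocyte NADPH oxidase, had 10.6 to 16.7 CPM in knockout and 4.47 to 7.76 in wild-type hearts (log2 fold change 1.22, SE 0.163, adjusted p = 4.22e-04), and its partner *Ncf1* rose by 1.08 (SE 0.142, adjusted p = 3.44e-04). *Ncf4*, another subunit, rose by 0.99 (SE 0.202, adjusted p = 0.00777). The study chose genes of this list, *Cybb* and *Ncf1* among them, for RT-qPCR from the sequencing of these hearts. This count is therefore not independent evidence of its direction. *Ero1l*, an oxidase of the endoplasmic reticulum that makes peroxide while forming disulfides, ran from 46.3 CPM (A) through 57.7 (B), 112 (14) and 124 (D) to 175 (15) in knockout hearts and from 38.8 to 45.5 in wild-type hearts (log2 fold change 1.32, SE 0.265, adjusted p = 0.00684). Its knockout hearts differed from each other by more than replicate A differed from the wild-type hearts.

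Marker genes of blood cells moved with the genotype. Of 16 erythroid markers tested 15 were higher and 0 lower, with a median log2 fold change of 2.88, and their summed level ran from 772 to 1474 CPM in knockout and from 228 to 677 in wild-type hearts. *Alas2*, which makes haem in red cell precursors, was the marker that did not pass (log2 fold change -0.60, adjusted p = 0.221). No erythroid marker tested was at 0 in either genotype. Of 16 macrophage markers 14 were higher and 0 lower, and their sum ran from 325 to 422 and from 165 to 252 CPM. Of 16 cardiomyocyte markers 5 were lower and 0 higher, their sums overlapped (41365 to 47129 against 41133 to 55634 CPM), and this was the most abundant of the marker lists in every heart. The cardiomyocyte count rose to 9 lower without *Pde2A*-/- replicate B, 8 without *Pde2A*+/+ replicate 11, 9 with DESeq2, and 10 lower and 1 higher with naming style as a covariate. In whole hearts, fewer cells of a type and less RNA per cell cannot be told apart.

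Of 10 endothelial markers 4 were higher and 1 lower, of 9 fibroblast markers 4 were higher and 0 lower, and of 5 smooth muscle markers 0 were higher and 1 lower. The fibroblast count was 2 without *Pde2A*-/- replicate 14. The smooth muscle gene, *Cnn1*, passed in 4 of the 11 fits with a heart left out, and 0 markers of that list were lower without *Pde2A*-/- replicates D or 15 or *Pde2A*+/+ replicates 7, 6, 8 or H. Of 8 hepatocyte markers 0 were higher and 0 lower, their median log2 fold change was -2.002, and their sum lay between 3.64 and 118 CPM over all hearts. Without *Pde2A*-/- replicate D 2 of them were lower.

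Among wild-type hearts alone, *Gpx1* was compared with the summed level of the erythroid markers. The summed erythroid level was 228 CPM in replicate 6, 293 in 8, 379 in E, 426 in 7, 512 in H and 677 in 11, and *Gpx1* had 165, 164, 175, 201, 196 and 251 CPM in the same hearts. Pearson's r was 0.95 (exact permutation p = 0.0056, two-sided) and Spearman's rho 0.89 (exact permutation p = 0.033), and r was 0.86 without replicates 11 and 6, the 2 farthest from the median. This was 1 of 20 relations computed, of 10 enzymes with 2 marker lists, after the values had been seen, and the adjusted p-values were 0.111 and 0.583, so it did not pass. *Cat* had r = 0.83 (exact permutation p = 0.042, adjusted p = 0.417), rho = 0.83 (exact permutation p = 0.058, adjusted p = 0.583) and r = 0.94 without the same 2 hearts. *Gpx3* had r = -0.11 (exact permutation p = 0.84, adjusted p = 0.931), rho = -0.14 (exact permutation p = 0.80, adjusted p = 0.968) and r = -0.93 without them. With 2 of the 6 wild-type hearts left out, too few remain for a correlation. The r values without these 2 hearts therefore say nothing on how firm the relations are. Of the summed erythroid level *Alas2* alone gave 77.0 (6), 116 (8), 132 (E), 205 (7), 244 (H) and 360 CPM (11). In knockout hearts *Alas2* gave 89.1 to 159 CPM, so the make-up of the sum differed between the genotypes. The relations without *Alas2* were not tested. Summed hepatocyte markers in the wild-type hearts were 3.64 (6), 4.23 (8), 118 (E), 4.72 (7), 39.8 (H) and 46.2 CPM (11). The part of liver RNA in the erythroid sum was not tested.

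Among the 5 knockout hearts, replicate A was lowest and B highest in the erythroid sum (772 and 1474 CPM) and also in *Gpx1* (240 and 350 CPM), and A was the knockout heart that overlapped the wild-type hearts in *Gpx1*, *Gpx3* and *Cat*. *Cat* was also highest in B, but was lower in 14 (110 CPM) than in D (124 CPM). The erythroid sum was larger in 14 (1223 CPM) than in D (1130 CPM). *Gpx3* was highest in 14. The 5 hearts are too few for a correlation. The part of red cell RNA in the higher *Gpx1* and *Cat* was not tested.

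**Figure D4:**
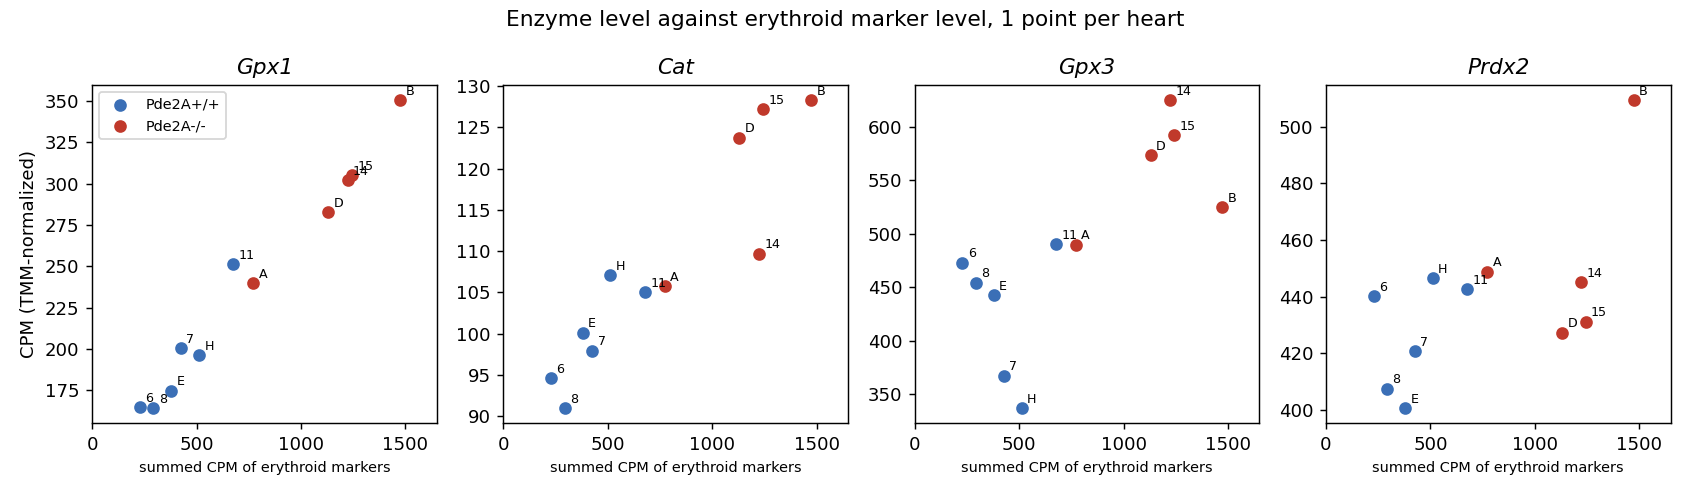
Level of *Gpx1*, *Cat*, *Gpx3* and *Prdx2* (CPM, vertical axes not from 0) against the summed level of 16 erythroid markers (CPM, horizontal axis), 1 point per heart with its replicate name, *Pde2A*+/+ in blue and *Pde2A*-/- in red. *Gpx1* points, from 164 to 350 CPM, mostly lie higher where the erythroid sum is larger, and *Gpx3* points in wild-type hearts do not. The wild-type relation of *Gpx1* did not pass after adjustment, and the knockout hearts were too few for a correlation.

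The genes most like each enzyme were taken as those whose log2 CPM deviations from the genotype mean had the highest Pearson r over the 11 hearts, among genes that averaged 1 CPM or more. These are descriptions, and the points share library and depth. Nearest to *Gpx1* were *Cd24a* (r = 0.97), *Fam210b* (0.95) and *Ube2l6* (0.94). Nearest to *Prdx2* were *Endod1* (0.93), *Eif2ak1* (0.93), a haem-regulated kinase, and *Uros* (0.90), an enzyme of haem synthesis. *Cat* had *Xpo7* (0.92), *F10* (0.89) and *Ccl9* (0.89). Among the other enzymes the nearest genes were *5430419D17Rik* for *Gpx3* (0.96), *Cpped1* for *Sod2* (0.97), *Mrpl49* for *Prdx1* (0.99) and *Sergef* for *Prdx3* (0.91).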

How the data were processed

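From stranded mRNA libraries (NEBNext Ultra II) read from 1 end, the authors aligned reads to GRCm38 by STAR, and they deposited its raw counts per gene, not normalized. The STAR version and gene annotation are not given in the sources used here. Counts on the strand of the gene were used, genotypes came from the labels, and names, positions and lengths from GENCODE M21, which matched 55227 of 55487 identifiers.

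Genes whose counts summed to 10 or more were normalized by TMM and compared by the quasi-likelihood test of edgeR 4.0.16 in R 4.3.3, with no covariate and Benjamini-Hochberg adjustment over all of them. The threshold for a call was an adjusted p of 0.05. Log2 fold changes are *Pde2A*-/- minus *Pde2A*+/+ from the fit, and log2 CPM for the likeness of genes used a prior count of 2. Standard errors and 95% intervals were derived from the F statistic of each gene. The fit was tested on simulated data. Intervals from the fit cover the spread between hearts, and no source says whether embryos of different genotype shared a litter.

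The 10 enzymes and the 15 other lists (8 of pathways, 7 of cell markers) were chosen with earlier results of these data known. Named genes are all enzymes, the 3 largest called changes in each list (mean of 1 CPM or more), genes given for their role, and the 3 most like genes per enzyme. *Ahsp* was not matched. Some genes that this rule names are counted in their lists but not reported singly here. Single values were compared by exact permutation over the 462 splits of 5 against 6 hearts (scipy 1.17.1). Tables and plots used numpy 2.4.6, pandas 2.3.3 and matplotlib 3.10.9 in Python 3.11.15.

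Alternatives were DESeq2 1.42.0, its size factors in edgeR, filterByExpr, no filter, globin genes removed, reads of both strands, replicate naming style or *Xist* as a covariate, other thresholds, transcript lengths and each heart left out in turn. The principal transcript as length and the relations to marker sums were added after the data had been seen.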

Additional observations from a re-analysis of the deposited data

Results flagged for a closer look

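Of 102 groups of hearts looked at, 6 held a heart far from the rest of its genotype, and chance alone would give about 1 in 20. Among the enzymes, *Prdx2* had 509.3 CPM in *Pde2A*-/- replicate B, where the other knockout hearts had 427.3 to 448.8, and *Prdx3* had 98.21 CPM in *Pde2A*+/+ replicate 11, where the others had 109.3 to 115.8.

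Among the other genes, *Ncf1* had 3.59 CPM in *Pde2A*+/+ replicate 6 (others 4.796 to 5.211) and *Tcf21*, a marker of epicardium and fibroblasts, 38.96 CPM in *Pde2A*+/+ replicate 8 (others 28.71 to 31.39). Summed hepatocyte markers reached 44.22 CPM in *Pde2A*-/- replicate D (others 4.744 to 7.493) and 117.5 CPM in *Pde2A*+/+ replicate E (others 3.644 to 46.17).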

How the results depend on the processing

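*Gpx1* and *Cat* passed in each of the 8 other settings and each of the 11 fits with a heart left out. Of 190 values of single enzymes under these alternatives 171 kept their direction and side of the threshold, 13 came to pass, 3 no longer passed (*Gpx3*) and 3 changed sign (*Sod3*). The enzymes called higher numbered 5 instead of 3 with DESeq2 and with filterByExpr (*Sod1* and *Prdx3* added), 1 at an adjusted p under 0.01 and 0 when a 2-fold change was also required. With a heart left out they numbered 2 to 5. Those called lower numbered 1 with naming style as a covariate (*Sod2*) and 0 to 1 with a heart left out. The log2 fold change of *Sod3* was 0.0128 with *Xist* as a covariate, and from -0.24 to 0.11 with a heart left out. It was positive without *Pde2A*-/- replicate 14 (0.01) and without *Pde2A*+/+ replicate E (0.11). The cause was not tested. No paired analysis was possible because the genotypes share no replicate number. *Sod3* had the fewest counts of the 10, and the part of depth in its wide interval was not tested. The limits are 5 against 6 hearts, unknown litters and a count of RNA that does not separate cell types.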

Other observations

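The 5 knockout hearts ranked A, B, 14, D, 15 from high to low in *Prdx1* (268, 264, 228, 206 and 196 CPM). *Sephs1* had the same rank order (97.8, 87.1, 68.6, 63.1 and 54.8 CPM), as had *Sephs2* and *Pex19*. *Ero1l*, *Slc3a2*, *Ncf1*, *Pex5* and *Xdh* had the opposite one, and so had the macrophage markers *Fcgr3*, *Csf1r* and *Tyrobp*, the endothelial markers *Flt1* and *Pecam1* and the fibroblast marker *Ogn*. The other macrophage, endothelial and fibroblast markers had neither order. Among them, *Cdh5* had 345, 363, 304, 286 and 289 CPM and *Cx3cr1* 23.6, 25.8, 24.6, 19.0 and 20.9 CPM in A, B, 14, D and 15. The part of these cell types in the order was not tested. *Ero1l* had 46.3, 57.7, 112, 124 and 175 CPM, and *Slc3a2* 68.1, 70.0, 87.0, 99.6 and 115 CPM. This order was seen after the values were known. Of 14015 further genes that averaged 1 CPM or more, 7.42% had the same order of the 5 hearts and 7.28% the opposite order. The order was thus not particular to the genes named here, and their share of the lists was not computed. The wild-type hearts had 245 to 284 CPM of *Prdx1* and 38.8 to 45.5 CPM of *Ero1l*, next to knockout replicates A and B in *Prdx1* and to A in *Ero1l*.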
